A study of Mus musculus with 4 samples.

Results

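The NRF2 and glutathione stress response was followed through 10 genes, Nfe2l2, Keap1, Nqo1, Gclc, Gclm, Gsr, Srxn1, Txnrd1, Prdx1 and Slc7a11, which were taken by name from the 27670 genes on the arrays. All 10 were found, by 20 probes, and a gene with several probes was represented by the brightest. The mice were male C57BL/6J, 7 weeks old, and each had been injected 6 h before its liver and spleen were taken with 10 mg/kg of lipopolysaccharide, the endotoxin of Gram-negative bacteria, which provokes inflammation throughout the body. The nucleoprotein (NP) group had eaten for 4 weeks a purified diet with 1.2% of a nucleoprotein product (0.5% nucleic acids), and the control group the purified diet alone (0.03% nucleic acids). Total RNA was pooled by diet, and the 2 arrays of an organ each carried both pools, with NP in Cy5 on array 1 and in Cy3 on array 2.

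The labels do not say whether the 2 arrays of an organ held the same pools or separate ones. The pair was treated as a technical dye swap of 1 pool per diet and organ, so no test of diet was possible. The SD of a diet ratio here covers labelling and array error. The SD of a liver minus spleen difference is taken over NP and control channel pairs. It therefore also holds any diet difference that is not shared by the organs. Each NP channel pair comes from the same 2 arrays as a control channel pair, so these channel pairs are not independent replicates. Housing notes name a standard chow while the study design names the purified diet, and the design was followed. Uninjected mice were not analysed here, so whether the injection itself moved these genes could not be measured.

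NRF2, the product of Nfe2l2, is a transcription factor that switches on antioxidant and detoxifying genes. KEAP1 holds it in the cytoplasm and hands it to the ubiquitin system for breakdown, until oxidants or electrophiles modify cysteines of KEAP1 and NRF2 reaches the nucleus. There it pairs with small MAF proteins on antioxidant response elements. Its targets import cystine, build glutathione and feed electrons from NADPH into glutathione, thioredoxin and quinones. In liver this system guards hepatocytes against reactive metabolites, and in macrophages it limits the oxidative side of inflammation.

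None of the 10 genes differed by 1.5-fold between the diets in either organ. In liver the mean ratios, as log2 of NP over control, ran between -0.18 for Nqo1 and 0.21 for Gclc, and in spleen between -0.18 for Keap1 and 0.03 for Gclc. A gene was called when it passed 1.5-fold (0.58 on the log2 scale) in 1 direction on both arrays of an organ. By that rule 0.0122% of 16406 measurable liver genes were higher and 0.311% lower, and 0.215% of 18150 spleen genes were higher and 0.231% lower, so 0 of 10 members is near the background share. The median ratio of the members was 0.01 in liver and -0.06 in spleen, beside 0.02 and -0.00 over all measurable genes of the 2 organs.

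**Figure D1:**
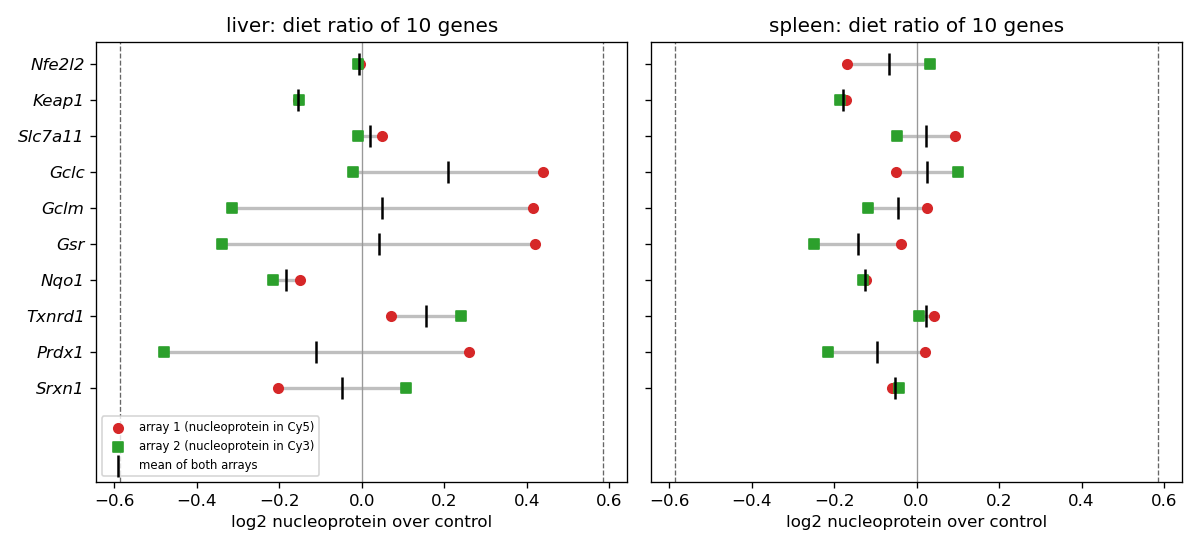
Diet ratio (log2 NP over control, x axis) of the 10 genes (y axis) in liver and in spleen; circles are array 1, squares array 2, black ticks their mean, and dashed lines the 1.5-fold bounds at 0.58 either side of 0. All points lie inside the bounds, and Keap1 and Nqo1 lie left of 0 on all 4 arrays. Slc7a11, Gclc, Gclm, Gsr, Prdx1 and Srxn1 lie on opposite sides of 0 on the 2 liver arrays.

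The levels of several of these genes differed more between organs than between diets. Slc7a11 was brighter on the spleen arrays and Srxn1 on the liver arrays, each past 2-fold in all 4 pairs of channels matched by diet and dye. Prdx1, Gclm, Nqo1 and Gclc were also brighter on the liver arrays in all 4 pairs, by smaller amounts. The share of all genes separated in this way without a fold bound was not counted, so such separations are description only. In the scaling used here Nfe2l2, Keap1, Txnrd1 and Gsr had mean differences, liver minus spleen, between -0.30 and 0.23. Levels below are log2 normalized intensities. A level was compared only with that of the same probe, since probes differ in how well they bind. An overlap of diets below refers to levels over both arrays of an organ, while a diet ratio compares the diets within an array.

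Nfe2l2, which encodes NRF2 itself, had liver levels of 12.18 and 12.22 in NP pools, against 12.18 and 12.23 in control pools. The diet ratios were -0.00 and -0.01 on the 2 liver arrays, so the groups overlapped. In spleen the levels were 12.56 and 12.39 in NP pools, against 12.73 and 12.35 in control pools, with a ratio of -0.07 ± 0.14 (SD of 2 arrays). The NP and control spleen levels overlapped as well. Between the organs the difference, liver minus spleen, was -0.30 ± 0.19 (SD of 4 matched pairs), and no liver value reached the spleen range.

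A second probe of the same Nfe2l2 transcript gave -0.24 for liver minus spleen, close to the first. The 2 other Nfe2l2 probes were designed on cDNA clones at other places of the locus and went apart, at -0.53 and 1.31. The mean diet ratios of the 4 probes ran between -0.15 and -0.01 in liver and between -0.07 and 0.10 in spleen. These means hide a disagreement between the liver arrays. The second probe of the same transcript gave 0.44 on array 1 and -0.47 on array 2, a mean of -0.02 ± 0.65.

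Keap1 encodes the adaptor that targets NRF2 for breakdown. Its probe was one of 3 among the 10 that the files place across more genome than its own 60 bases, so it must cross a splice junction of the mature transcript. These 3 probes are shown since they can bind only spliced RNA along their whole length, with positions on build mm7 as in the files.
Keap1 probe, chr9:21107406-21107846, minus strand: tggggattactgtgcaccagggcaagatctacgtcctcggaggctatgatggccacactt
Gclm probe, chr3:122027477-122030112, plus strand: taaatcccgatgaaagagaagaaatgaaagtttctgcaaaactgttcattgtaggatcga
Prdx1 probe, chr4:116069412-116070182, plus strand: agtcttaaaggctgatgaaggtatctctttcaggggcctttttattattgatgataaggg

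The Keap1 levels in liver were 11.74 and 11.63 in NP pools, against 11.89 and 11.78 in control pools. In spleen they were 11.73 and 11.57 in NP pools, against 11.90 and 11.76 in control pools. In each organ both NP values lay below both control values. The ratios were -0.16 and -0.15 in liver and -0.17 and -0.19 in spleen. A fold of 1.11 in liver and 1.13 in spleen, control over NP, is below the bound used for calls.

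Only Keap1 and Nqo1 among the 10 had ratios below 0 on all 4 arrays, and only Txnrd1 had ratios above 0 on all 4. Of 15317 genes measurable in both organs, 3.4% were below 0 on all 4 arrays and 5.3% above. A further 6.56% had both liver arrays on 1 side of 0 and both spleen arrays on the other, which 0 of the 10 members had. The sign of Keap1 in liver depended on the scaling. With each array centred on its median instead of loess, its liver ratio was 0.19, in a setting where the median over all genes in liver was 0.17, while its spleen ratio was -0.16. The organ difference of Keap1 was 0.02 ± 0.03, with 4 pairs between -0.01 and 0.06. It depended on the scaling too, at 0.52 with the scanner software's processed signals.

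Slc7a11 encodes the light chain of the cystine and glutamate exchanger, which brings in the cysteine that limits glutathione synthesis. Its levels in liver were 6.60 and 6.49 in NP pools, against 6.55 and 6.50 in control pools. In spleen they were 8.80 and 8.71 in NP pools, against 8.71 and 8.76 in control pools. The diets overlapped in each organ, with ratios of 0.02 ± 0.04 in liver and 0.02 ± 0.10 in spleen, while no liver value came near a spleen value.

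Liver minus spleen was -2.21 ± 0.05 for Slc7a11, between -2.26 and -2.15 in the 4 pairs. That is 4.63-fold brighter on the spleen arrays. The liver signal was weak, well above background in 3 of 4 channels, and the lowest level of any liver probe well above background averaged 6.07. The offset of 50 added in background correction compresses such values, and the fold was 7.50 with an offset of 10. With the scanner software's processed signals, which differ in background, dye normalization and scaling together, it was 14.4. The other 3 Slc7a11 probes were also brighter on the spleen arrays, where all 4 channels of each were well above background. On the liver arrays the same 3 probes were well above background in 3, 2 and 0 of 4 channels, so the size of their difference is limited by background.

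Gclc encodes the catalytic subunit of glutamate cysteine ligase, the rate-limiting enzyme of glutathione synthesis. Its liver levels were 12.40 and 12.04 in NP pools, against 11.97 and 12.06 in control pools, and 1 NP value stood above the rest. The ratios were 0.44 and -0.02 on the 2 liver arrays, with a mean of 0.21 ± 0.32. The spleen levels were 11.29 and 11.37 in NP pools, against 11.34 and 11.27 in control pools, a ratio of 0.03 ± 0.11. Liver minus spleen was 0.80 ± 0.22, and every liver value lay above every spleen value.

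Gclm, the modifier subunit of the same enzyme, had liver levels of 8.86 and 8.63 in NP pools, against 8.45 and 8.94 in control pools. The liver ratios were 0.41 and -0.31, opposite in sign, with a mean of 0.05 ± 0.52. Spleen levels were 7.62 and 7.46 in NP pools, against 7.60 and 7.58 in control pools, and the ratio was -0.05 ± 0.10. Liver minus spleen was 1.15 ± 0.22, or 2.23-fold, above 0 in all 4 pairs but below the 2-fold bound in 1 of them, at 0.85. Both subunits were brighter on the liver arrays, and the diets overlapped for each.

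Gsr, glutathione reductase, returns oxidized glutathione to its reduced form with NADPH. In liver it measured 12.03 and 11.46 in NP pools, against 11.61 and 11.80 in control pools, with ratios of 0.42 and -0.34. In spleen it measured 11.28 and 11.56 in NP pools, against 11.32 and 11.80 in control pools, with a ratio of -0.14 ± 0.15. The diets overlapped in both organs, and so did the organs, at 0.23 ± 0.38 for liver minus spleen (0.74 with the processed signals). Its 3 probes were close, between 0.23 and 0.32 for that difference.

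Nqo1, a quinone reductase widely used as a readout of NRF2 activity, was the member most below 0 in liver. It had liver levels of 7.58 and 7.81 in NP pools, against 7.73 and 8.02 in control pools. Its spleen levels were 6.70 and 6.68 in NP pools, against 6.83 and 6.81 in control pools. Over both arrays the diet levels overlapped in liver and did not in spleen, but within each array NP was the lower in both organs. The ratios were -0.15 and -0.22 in liver and -0.12 and -0.13 in spleen. With the scanner software's own log ratios, to which no offset was added here, they averaged -0.36 in liver and -0.24 in spleen, still inside the bound.

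Liver minus spleen was 1.03 ± 0.17 for Nqo1, or 2.05-fold, and 2 of the 4 pairs were below the 2-fold bound. With the offset of 10 the fold was 2.67, and with the processed signals 4.01. All 8 Nqo1 channels were well above background.

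Txnrd1, cytosolic thioredoxin reductase, keeps thioredoxin reduced. Its liver levels were 13.24 and 13.47 in NP pools, against 13.17 and 13.23 in control pools, and the NP values were the higher ones. The liver ratio was 0.16 ± 0.12. Spleen levels were 13.42 and 13.39 in NP pools, against 13.38 and 13.38 in control pools, a ratio of 0.02 ± 0.03. In spleen both NP values were again the higher ones, with ratios of only 0.04 and 0.01. The organs overlapped, with a liver minus spleen difference of -0.11 ± 0.13.

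Prdx1 encodes a peroxiredoxin, which removes hydrogen peroxide with electrons from thioredoxin. The liver levels were 14.73 and 14.35 in NP pools, against 14.47 and 14.83 in control pools. The liver ratios of 0.26 and -0.48 had opposite signs, and -0.48 was the value farthest from 0 on any single array among the 10 genes. In spleen the levels were 13.50 and 13.28 in NP pools, against 13.48 and 13.49 in control pools, a ratio of -0.10 ± 0.17. Liver minus spleen was 1.16 ± 0.16, or 2.23-fold (4.10-fold with the processed signals), and no liver value overlapped a spleen value.

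Srxn1, sulfiredoxin, repairs overoxidized peroxiredoxins. Liver levels were 10.85 and 11.03 in NP pools, against 11.05 and 10.93 in control pools, a ratio of -0.05 ± 0.22. Spleen levels were 9.18 and 9.13 in NP pools, against 9.24 and 9.17 in control pools, a ratio of -0.05 ± 0.01. Liver minus spleen was 1.78 ± 0.10, or 3.44-fold, between 1.67 and 1.91 in the 4 pairs. The other 2 Srxn1 probes, both dimmer, gave 1.03 and 0.70 in the same direction.

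**Figure D2:**
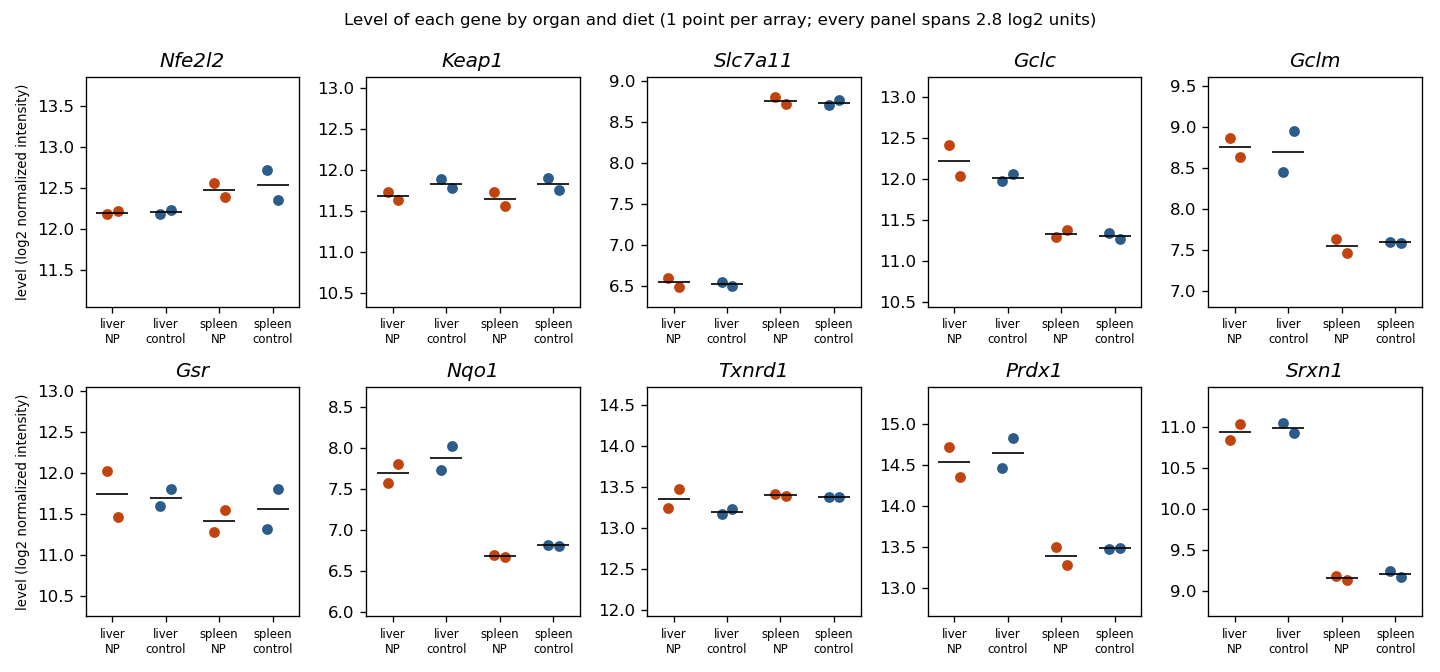
Level (log2 normalized intensity, y axis) of each gene in NP and control pools of liver and spleen (x axis); a point is 1 array, a bar the mean of 2, and each panel spans the same number of log2 units on its own range. Slc7a11 averages 6.53 in liver and 8.74 in spleen, and Srxn1 10.97 and 9.18. For both genes the NP and control points of an organ lie closer to each other than to those of the other organ. The liver points of Gsr are spread between 11.46 and 12.03.

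Under the 2-fold rule, 1 of 10 members counted as brighter on liver arrays (Srxn1) and 1 on spleen arrays (Slc7a11). Of 18975 genes measurable in either organ, 12.5% were called brighter on liver and 16.2% on spleen arrays by the same rule, so the members' shares were near the background. In order of the difference the genes ran Srxn1, Prdx1, Gclm, Nqo1, Gclc, Gsr, Keap1, Txnrd1, Nfe2l2 and Slc7a11. Only Srxn1 at one end and Slc7a11 at the other were separate from their neighbour, and all other neighbours had overlapping ranges over the 4 pairs. With the processed signals at their 75th percentile the liver count was 5 (Nqo1, Gclc, Gclm, Srxn1 and Prdx1) and the spleen count 1. The share of all genes called with those signals is not given here, so these counts have no background beside them. In that setting Nfe2l2 and Txnrd1 turned to 0.29 and 0.63, and Keap1 and Gsr rose to 0.52 and 0.74. The median of all genes moved by less than 0.1.

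Each organ sat on arrays of its own, so organ and array cannot be told apart, and a difference in cell makeup cannot be told from one in RNA per cell. On the liver arrays 21 of 21 hepatocyte markers were brighter by the 2-fold rule. On the spleen arrays the brighter ones were 9 of 9 B cell, 10 of 12 T cell and NK cell, 8 of 14 macrophage and 6 of 12 erythroid markers. Another 2 macrophage markers, Clec4f and Vsig4, were brighter on the liver arrays. By the same rule 12.5% of all genes were brighter on liver and 16.2% on spleen arrays. The part of these cell types in the differences of Slc7a11, Srxn1 and the other members was not tested.

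**Figure D3:**
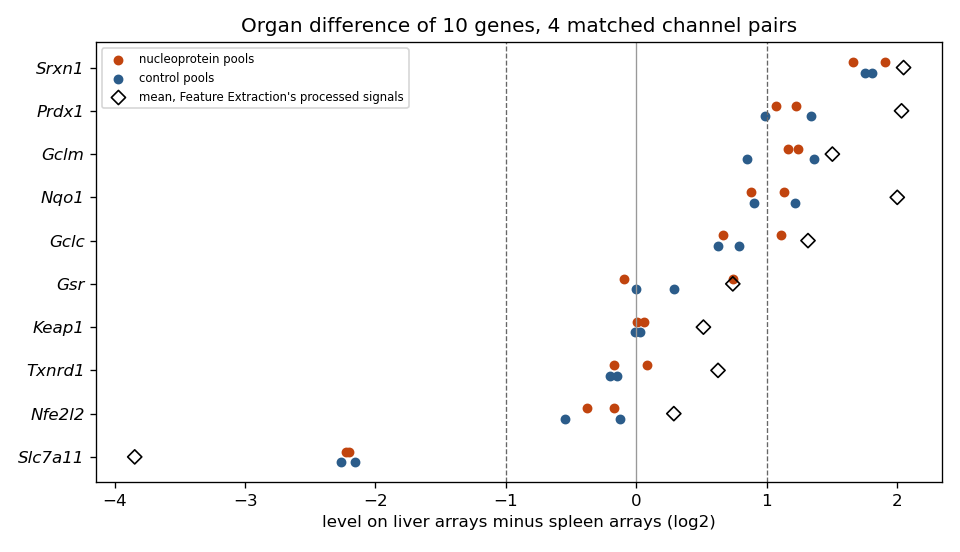
Level on the liver arrays minus that on the spleen arrays (log2, x axis) for the 10 genes (y axis), with a point for each of 4 channel pairs matched by diet and dye; diamonds are means with the scanner software's processed signals, and dashed lines mark 2-fold. Srxn1 lies at 1.78 and Slc7a11 at -2.21, apart from the genes next to them.

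Among the brightest probes of the members, the 2 liver arrays disagreed most for Gsr, Prdx1, Gclm and Gclc. Their ratios had SDs of 0.54, 0.52, 0.52 and 0.32 in liver and of 0.15, 0.17, 0.10 and 0.11 in spleen. The second Nfe2l2 probe had a larger SD in liver, 0.65. Hepatocyte markers also split between the liver arrays, with medians of 0.41 on array 1 and -0.43 on array 2, and 0 of 21 had the same sign on both. With 2 arrays per organ, dye, array and any difference between pools cannot be told apart. In liver, 4 members (Nfe2l2, Keap1, Nqo1 and Txnrd1) had the same sign on both arrays, against 34.1% of all genes, and in spleen 5 did, against 40.3%.

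Markers of other tissues did differ between the same pools. All 24 measured pancreatic acinar markers were lower in the NP liver pool, with a median of -3.61, and 16 of 24 were called lower in spleen, with a median of -0.99. Hepatocyte markers were higher in the NP spleen pool, 11 of 18 called, with a median of 0.84. The shares called over all measurable genes were 0.311% lower in liver, and 0.231% lower and 0.215% higher in spleen. Neutrophil markers had medians of 0.13 in liver and 0.10 in spleen, and macrophage markers 0.03 and -0.03, with none called. How these shifts bear on the members' ratios was not tested.

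A set of 5 lists of related genes put the 10 members in context, with 108 genes in all, of which 104 were measured in liver and 100 in spleen. Beside 0.311% of all measurable liver genes called lower and 0.0122% higher, a single gene of the lists passed the diet bound, G6pdx in liver. Its enzyme, glucose-6-phosphate dehydrogenase, makes the NADPH on which both reductases run, and it was lower in the NP pool by -0.82 and -1.17, a mean of -0.99 ± 0.25. With median centring in place of loess it was at -0.74. In spleen G6pdx was at -0.00 ± 0.10.

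Over all measurable genes, 9606 of 16406 lay above 0 in liver and 8965 of 18150 in spleen. Of the list of regulators around NRF2 and KEAP1, 11 of 17 lay above 0 in liver, with a median of 0.02. In spleen 7 of 17 did, with a median of -0.00. The largest ratios with the same sign on both arrays were those of Maff, a small MAF partner of NRF2, at 0.28 ± 0.32, and Bach1, a repressor that competes for the same DNA elements, at -0.27 ± 0.22 in liver. In spleen they were those of Sqstm1, the autophagy receptor p62 that binds KEAP1, at -0.19 ± 0.21 and Bach2 at -0.14 ± 0.15. Bach2 was 10.8-fold brighter on the spleen arrays and Syvn1, a ubiquitin ligase of the endoplasmic reticulum, 2.61-fold brighter on the liver arrays. Bach1 was at 0.91 for liver minus spleen, not past 2-fold in all 4 pairs.

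Other NRF2 target enzymes had medians of 0.03 over 29 genes in liver and -0.03 over 27 in spleen. After G6pdx, Me1, the cytosolic malic enzyme that also makes NADPH, was the lowest in liver, at -0.58 ± 0.59, with its 2 arrays far apart. In spleen Ephx1, a microsomal epoxide hydrolase, was at -0.24 ± 0.11 and Hmox1, heme oxygenase 1, at -0.17 ± 0.05. For the organs, 14 of 28 were brighter on the liver arrays, beside 12.5% of all genes measurable in either organ. The glutathione transferase Gsta3 and Me1 led them, at 6.72 and 5.81 for liver minus spleen. Another 4 were brighter on the spleen arrays, beside 16.2% of all genes. The efflux transporters Abcc1 at -2.58 and Abcc4 at -2.01 were the farthest of them.

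Among genes of glutathione synthesis, use and breakdown, 14 of 30 lay above 0 in liver and 13 of 29 in spleen, with medians of -0.01 in both. Cth, which makes cysteine from cystathionine, was at 0.22 ± 0.19 in liver and the glutaredoxin Glrx at -0.19 ± 0.22. In spleen Cdo1, cysteine dioxygenase, was at 0.24 ± 0.15 and the aminopeptidase Anpep at -0.20 ± 0.09. By organ 14 of 30 were brighter on the liver arrays (12.5% of all genes), with Mat1a, which makes S-adenosylmethionine, and Cdo1 the farthest. Mat1a was 311-fold brighter, 664-fold with the offset of 10 and 2929-fold with the processed signals, its spleen level of 6.29 being near background (3 of 4 channels well above it). Cdo1 was 201-fold brighter, and 609-fold with the processed signals. Slc1a5, a glutamine transporter, at -4.56 and the secreted peroxidase Gpx3 at -3.29 were the farthest of 5 on the spleen side. By the same rule 16.2% of all genes were brighter on the spleen arrays.

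In the thioredoxin and peroxiredoxin list the medians were -0.01 over 17 genes in liver and -0.03 over 16 in spleen. Prdx6, a peroxiredoxin that works with glutathione, was at -0.22 ± 0.11 and the sestrin Sesn1 at -0.21 ± 0.01 in liver. In spleen Prdx4, a peroxiredoxin of the endoplasmic reticulum, was at -0.26 ± 0.03 and Txnip, a thioredoxin inhibitor, at -0.14 ± 0.20. Msra and Prdx4 were brighter on the liver arrays, at 3.07 and 2.05, and Sesn1 and Txnrd3 on the spleen arrays, at -2.82 and -2.42.

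Superoxide and peroxide enzymes had medians of 0.03 in liver and -0.04 in spleen over 11 genes each. On the spleen arrays 6 of the 11 were brighter, beside 16.2% of all genes. Cyba and Rac2, parts of the phagocyte NADPH oxidase, stood at -3.32 and -3.11 for liver minus spleen, while catalase, Cat, was at 4.05 and Sod1 at 1.07. By diet, Cyba was at 0.15 ± 0.09 and Mpo, neutrophil myeloperoxidase, at 0.13 ± 0.03 in liver. In spleen Cyba was at -0.15 ± 0.12.

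**Figure D4:**
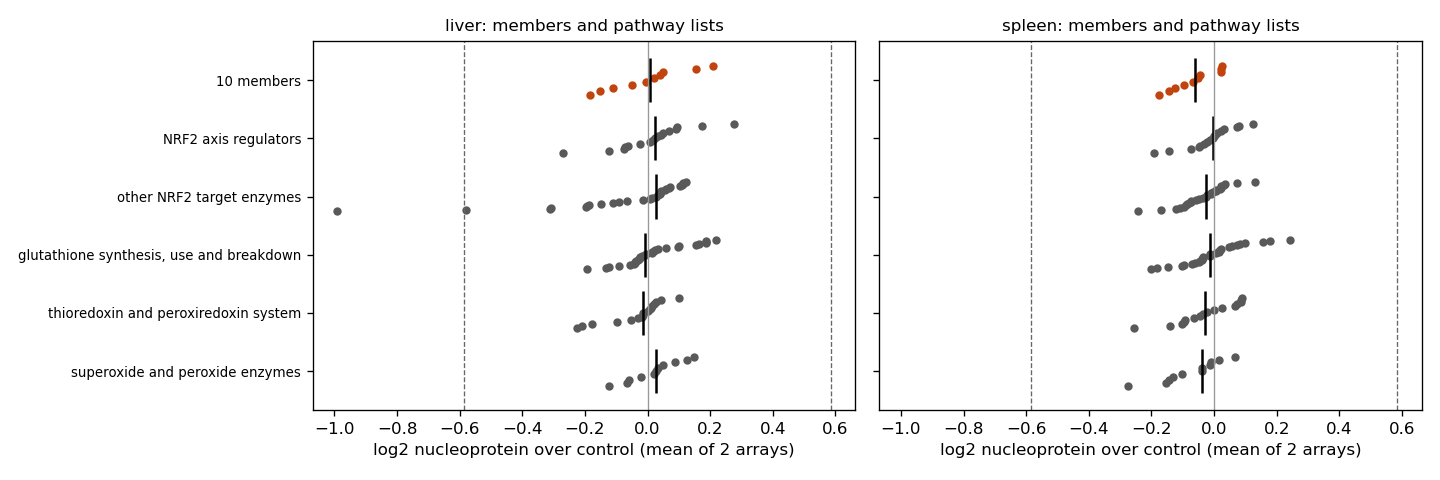
Diet ratio (log2 NP over control, mean of 2 arrays, x axis) of the 10 members and of the genes of 5 pathway lists (y axis) in liver and spleen; a point is a gene, a black bar the list's median and dashed lines the 1.5-fold bounds. In liver G6pdx, at -0.99, lies beyond a bound on both of its arrays, and Me1 lies near the bound with arrays far apart.

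The pathway gene with the most similar pattern to each member was sought among 98 list genes measurable in both organs, as the smallest root mean square difference over 8 channels after each gene's mean was removed. Slc7a11 was nearest to Abcc4, at 0.11 log2 units, and Srxn1 to the mitochondrial thioredoxin reductase Txnrd2, at 0.13. Prdx1 and Gclm were both nearest to Glrx, at 0.10 and 0.15, Nqo1 to Sod1 at 0.10 and Gclc to Chac1 at 0.12. Nfe2l2 was nearest to Prdx2 at 0.08, Keap1 to Glrx5 at 0.11, Txnrd1 to Sesn2 at 0.10 and Gsr to Gpx7 at 0.15. For Keap1 and Txnrd1 this distance was about as large as the gene's own variation over the channels (0.11 and 0.10), so likeness there says little. For Gsr the variation was 0.24. The organ difference is part of the 8 channels compared, so a similar one in the nearest gene follows from the choice. An example is 1.03 for Nqo1 beside 1.07 for Sod1. The smallest of 98 distances was taken for each member, so none of these pairings shows shared regulation.

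Promoter windows of 250 bases before to 50 after the gene start, from RefSeq on build GRCm38.p6, were given for 8 of the 10 members and not for Gclc and Gsr. They were searched on both strands for TGACNNNGC, the core letters of the antioxidant response element. Of 10 windows (Txnrd1 has 3), 5 held a match, belonging to 5 of the 8 genes, while 12.4% of all 32851 windows held one. Nqo1, Slc7a11 and Keap1 had none within this window. The matches are shown since they hold the core letters of the element, and whether NRF2 acts through any of them was not tested. Each match is in capitals, read along the gene's strand, and all but that of Nfe2l2 are on the opposite strand.
Nfe2l2, chr2:75704875-75704913, minus strand: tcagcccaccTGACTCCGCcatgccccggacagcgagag
Gclm, chr3:122245403-122245451, plus strand: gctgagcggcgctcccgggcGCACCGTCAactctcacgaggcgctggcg
Prdx1, chr4:116685446-116685494, plus strand: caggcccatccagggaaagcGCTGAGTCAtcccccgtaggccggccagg
Txnrd1, chr10:82859094-82859142, plus strand: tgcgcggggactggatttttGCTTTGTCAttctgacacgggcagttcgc
Srxn1, chr2:152105542-152105570, plus strand: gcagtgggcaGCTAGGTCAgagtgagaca

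The matches began 240 bases before the gene start in Nfe2l2, 134 in Gclm, 133 in Prdx1 and 92 in Txnrd1, and 28 bases after it in Srxn1. That of Prdx1 overlapped the AP-1 motif TGACTCA. On either strand this motif was held by 2 of the 10 member windows, those of Prdx1 and Srxn1, and by 5.20% of all windows. For the 5 genes with a match, liver minus spleen ran between -0.30 for Nfe2l2 and 1.78 for Srxn1, and the diet ratio in liver between -0.11 for Prdx1 and 0.16 for Txnrd1. A match of letters does not show that NRF2 binds there.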

How the data were processed

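Liver and spleen RNA, pooled by diet, was measured on 4 Agilent two-colour arrays of 1 slide. Per the submitters' processing notes the authors used Agilent Feature Extraction 9.5.3.1 (step version 9.5.1.1 in the file headers). Per the file headers, the deposited files hold mean and local background intensity, processed intensity after background subtraction and dye normalization, and, per spot, a log10 ratio of the red to the green processed intensity. Feature Extraction's deposited flags, coded 0 or 1, mark spots well above background, saturated or outlying. The authors' value table, here read as a score, was the linear red over green ratio (within 0.02 log2 units for 99.7% to 99.9% of spots well above background) with a minus sign on both replicate 1 arrays. Its column medians were -0.92, 0.92, -0.96 and 0.96. Scale and direction were thus known, centring was none beyond Feature Extraction's, and the purpose of the sign stays unknown.

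From these, intensities were corrected by normexp with an offset of 50 and normalized by loess within arrays (limma 3.58.1, R 4.3.3), with control spots at no weight. Outlier-flagged spots were left out (189 to 354 of 43379 gene spots per array), and 0 were saturated. Levels came after Aquantile scaling. Between 55.2% and 66.9% of gene spots on the liver arrays and between 62.2% and 72.8% on the spleen arrays were well above background. The number of arrays limits the precision. The 41174 probes were named through RefSeq accessions of GRCm38.p6 (22951), names or synonyms (9768), or as in the file (8455). A gene was measurable where 1 diet was well above background on both arrays. All members are named, with the list genes that were called or had the largest same-sign ratios or organ differences (at most 2 per list, organ and direction). Some genes that this rule names are not reported here. Members and lists were chosen with earlier results of these data known.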

Additional observations from a re-analysis of the deposited data

Results flagged for a closer look

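No member was flagged. Of the other genes named, 3 had both liver arrays on 1 side of 0 and both spleen arrays on the other, which 6.56% of the 15317 genes measurable in both organs had. Genes were named partly for having the same sign on both arrays of an organ, so the 3 cannot be set against that share. Bach1 stood at -0.27 in liver and 0.12 in spleen, a difference of -0.40. Bach2 stood at 0.17 and -0.14, a difference of 0.32, and Cyba at 0.15 and -0.15, a difference of 0.30. These differences between the organs were not tested, and none of the 6 ratios passed the 1.5-fold bound.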

How the results depend on the processing

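The count of members called by diet was 0 higher and 0 lower in each organ under all alternatives run (offset of 10, median centring, deposited log ratios, mean of probes, both channels above background, either array alone, red over green term of the other organ subtracted, 2-fold bound). The members' median was 0.28 in liver with median centring, where all genes had 0.17, and between -0.09 and 0.06 on single arrays. It was between -0.08 and -0.04 on single spleen arrays. Counts over all genes moved more. In liver, median centring gave 0 higher and 32 lower, the deposited log ratios 28 and 106, the 2-fold bound 0 higher, and single arrays 29 to 198 higher and 94 to 258 lower. In spleen the offset of 10 gave 66 higher, median centring 10 lower, the deposited log ratios 102 higher and 81 lower, the 2-fold bound 21 and 18, and single arrays 57 to 94 lower. The liver signal of Slc7a11 lay near background, which limits its fold. Members brighter on liver arrays numbered 2 with the offset of 10, 5 with processed signals, 3 in NP channels alone, and 1 to 4 on single arrays (Nqo1, Gclm and Prdx1 joined Srxn1 without replicate 1). The shares of all genes in these settings are not given here, so the counts cannot be set against a background. Slc7a11 was the 1 member brighter on spleen arrays in all 7 alternatives, between -3.85 and -1.30. Liver signs turned with median centring for Nfe2l2 (0.34), Keap1, Srxn1 (0.25) and Prdx1 (0.30). No paired analysis was possible because no test was made, and each diet ratio is already a difference within 1 array.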
